A study of Mus musculus with 8 samples.

Results

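Interleukin-10 (IL-10) and 7 genes that act with it were followed through bulk RNA-seq of CD4+ (helper) T cells from the mouse spleen. The 8 genes were taken by symbol from the 54532 genes listed: Il10 itself, its receptor chains Il10ra and Il10rb, the transcription factors Maf, Prdm1 and Ahr, the cytokine receptor chain Il27ra and the cytokine chain Ebi3. All 8 symbols were found, and all 8 genes passed the low-count filter that left 13981 genes for testing. One group of 4 libraries carries the treatment label vehicle, called DMSO in the file headers. The other group of 4 carries the label dimethyl succinate, a cell-permeable ester of the tricarboxylic acid cycle intermediate succinate, with an exposure of 3 days. Whether cells in culture or mice received the treatment is not stated in the labels. Both groups were wild type. The sources used here do not give mouse strain, age, dose or any T cell stimulus. Nor do they say whether each library had its own animal or culture, so the p-values cover the spread of these libraries alone, and that spread may be technical.

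IL-10 is a secreted cytokine that restrains macrophages, dendritic cells and T cells. It binds a receptor made of IL-10RA, the chain specific to it, and IL-10RB, a chain that IL-22 and the lambda interferons also use, and the receptor signals through the kinases JAK1 and TYK2 to STAT3. In CD4+ T cells the gene is switched on by the transcription factors MAF, BLIMP-1 (encoded by Prdm1) and the aryl hydrocarbon receptor (AHR). IL-27, a dimer of EBI3 and the product of Il27, drives this programme through a receptor of IL-27RA and the shared chain gp130, encoded by Il6st.

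Depth ran from 13407295 to 16688854 counts per library. Cd4, the defining gene of these cells, averaged 415 ± 65.5 CPM (counts scaled to library size) in the vehicle group and 471 ± 15.5 in the dimethyl succinate group (SD, n = 4), a log2 fold change of 0.18, or 0.075 without vehicle replicate 4. Vehicle replicate 4 stood apart: mitochondrial genes took 0.252% of its counts, and 1.16% to 1.48% in the other 7 libraries. It was the lowest of the 8 libraries for 6 of the 8 genes described here, and for 29.4% of all genes tested. Values without it are given below for each of the 8 genes, and for many but not all of the other genes.

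The transcripts of this group differed little between vehicle and dimethyl succinate, and the cytokine and its specific receptor chain lay on opposite sides. Fitted levels under dimethyl succinate differed from vehicle by 15.2% for Il10 and by -14.3% for Il10ra. For the inducing factors Maf, Prdm1 and Ahr the estimates were 2.16%, -2.90% and -2.69%. With edgeR's quasi-likelihood test none of the 8 genes passed an adjusted p of 0.05, and neither did any other gene, a share of 0% of all tested. DESeq2 called 4 genes, none of them among the 8. At an unadjusted p below 0.05 there were 2 of the 8, Il10 higher and Il10ra lower, where 5.76% of all genes tested reached that p, 2.93% higher and 2.83% lower. In bulk RNA, fewer cells that express a gene and less of its RNA per cell cannot be told apart.

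**Figure D1:**
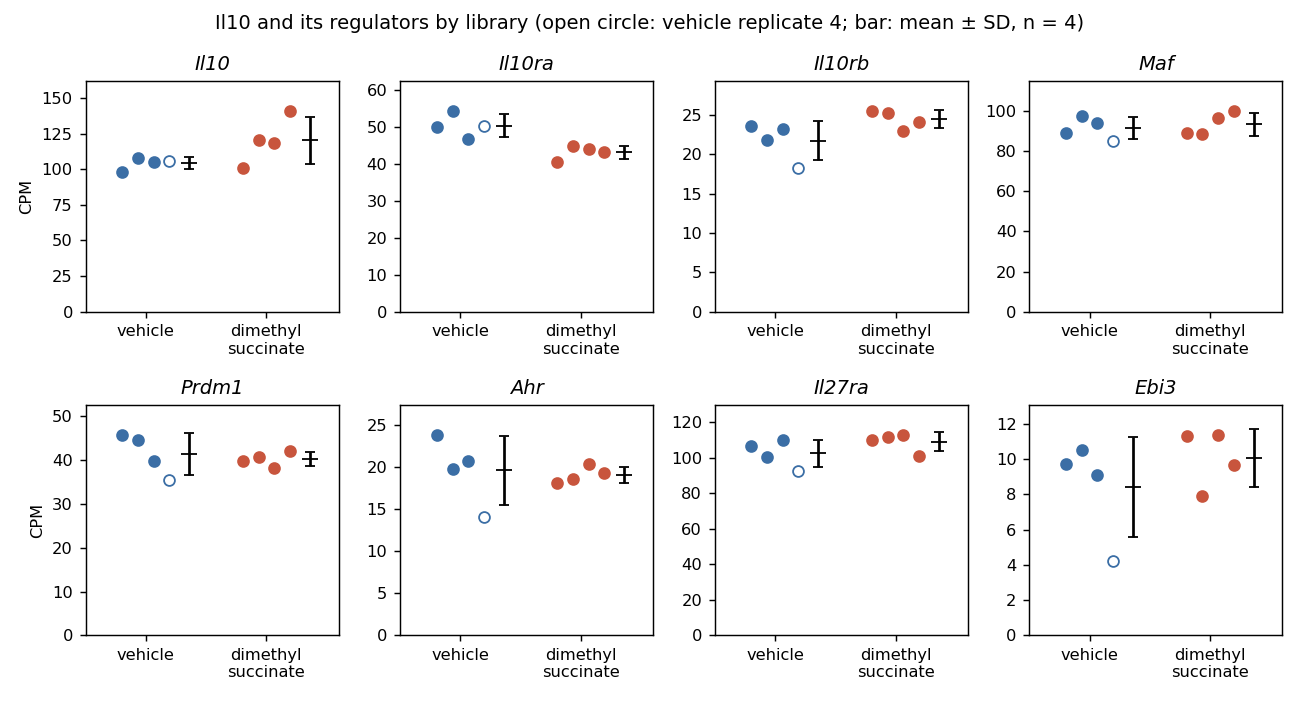
CPM of each of the 8 genes in every library, with vehicle in blue and dimethyl succinate in red. Filled circles are libraries, the open circle is vehicle replicate 4 and the black bar is the mean ± SD of 4 libraries. The groups are separate for Il10ra alone, and vehicle replicate 4 is the lowest library for 6 of the 8 genes.

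Il10 was the most abundant of the 8 transcripts per length. In CPM it stood at 97.9, 108, 105 and 106 in vehicle replicates 1 to 4. Under dimethyl succinate it stood at 101, 121, 119 and 141 in replicates 1 to 4. Replicates 2, 3 and 4 of dimethyl succinate thus lay above every vehicle library, while replicate 1 lay inside the vehicle range. Vehicle averaged 104 ± 4.43 CPM and dimethyl succinate 120.1 ± 16.4 (SD, n = 4), so the SD was wider under dimethyl succinate. On the log2 scale dimethyl succinate was 0.20 ± 0.088 (SE) above vehicle, with 95% limits of 0.014 and 0.39. The edgeR quasi-likelihood test gave an unadjusted p of 0.0376, which became 0.802 after adjustment over all genes. An exact permutation test of the mean log2 CPM, two-sided, with 70 arrangements of the labels, gave p = 0.114. The value leaned on dimethyl succinate replicate 4, the highest library: without it the log2 fold change was 0.12, with an unadjusted p of 0.156. The unadjusted p also exceeded 0.05 on omission of replicate 1 or 3 of vehicle, or replicate 2 or 3 of dimethyl succinate. Without dimethyl succinate replicate 1 the value was 0.28 and the groups no longer overlapped, with an unadjusted p of 0.00306 (adjusted, 0.911). In that fit the groups did not overlap for 1146 of 14216 genes tested, 618 of them higher under dimethyl succinate. Leaving out vehicle replicate 4 left Il10 at 0.21.

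The Il10 gene lies on the plus strand of chromosome 1 from 131019845 to 131024974 (GRCm38), and none of its 1310 exon bases is shared with another annotated gene. Per length, Il10 reached 79.3 ± 3.43 FPKM, which scales for gene length as well as library size, with vehicle and 91.0 ± 12.4 with dimethyl succinate (SD, n = 4). Of 14 other cytokine genes of CD4+ T cells, 2 had a higher mean FPKM in both groups. Il2, a T cell growth factor, stood at 87.8 ± 10.1 and 109 ± 9.98 FPKM, a range over the libraries that overlaps that of Il10. Ifng, the T helper 1 cytokine, stood at 140.3 ± 34.5 and 169 ± 31.6 FPKM, and 25.9% of its exon bases are shared with the gene model Gm49751.

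Il10ra, the receptor chain specific to IL-10, was lower under dimethyl succinate in every library. It stood at 49.9, 54.2, 46.6 and 50.3 CPM in vehicle replicates 1 to 4. The dimethyl succinate replicates stood at 40.6, 44.7, 43.9 and 43.1 CPM. The highest library of the second set lay below the lowest of the first, so the groups did not overlap. Among all genes tested the groups did not overlap for 4.82%, of which 2.5% of all genes were higher and 2.32% lower in that way, so a gene with this pattern is not rare in these libraries. They did not overlap without vehicle replicate 4 either, where 9.63% of all genes separated in this way, 4.99% higher and 4.64% lower. The means were 50.3 ± 3.13 and 43.1 ± 1.78 CPM (SD, n = 4). Its log2 fold change came to -0.22 ± 0.073 (SE), with 95% limits of -0.38 and -0.065. The unadjusted p by edgeR's quasi-likelihood test was 0.00939, rank 143 of 13981 genes, and adjustment took it to 0.802. By exact permutation, two-sided, p = 0.0286, which is the lowest value that 4 libraries against 4 allow. Leaving out vehicle replicate 4 gave -0.22 again, with an unadjusted p of 0.004 that became 0.285 when adjusted. The authors' deposited table gives Il10ra a log2 fold change of -0.23 with a p of 0.00583 and an adjusted p of 0.579. The gene occupies 45253837 to 45269149 of chromosome 9, minus strand (GRCm38), and shares none of its exon bases with another annotated gene.

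**Figure D2:**
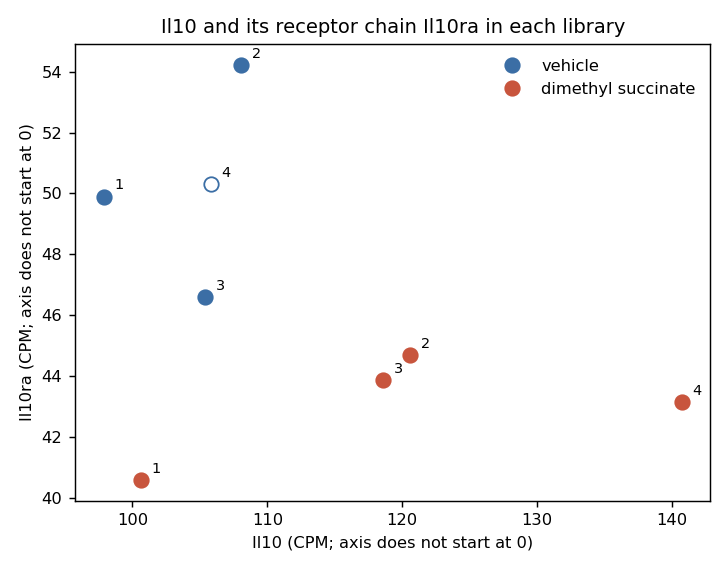
Il10 (horizontal) against Il10ra (vertical), both in CPM, one point per library, with replicate numbers beside the points and vehicle replicate 4 open. Neither axis starts at 0. The dimethyl succinate libraries sit below all vehicle libraries on the Il10ra axis, and 3 of them sit to the right of all vehicle libraries on the Il10 axis.

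Set against each other within a library, where the scaling of libraries cancels out, Il10 and Il10ra separated the groups. This ratio was chosen after the values were seen and is given without a test. Il10ra alone already separated the groups and Il10 leaned the other way, so the separation of the ratio is no further evidence of a difference. How many other pairs of genes separate the groups in this way was not counted. There were 1.96, 1.99, 2.26 and 2.10 Il10 counts per Il10ra count in vehicle replicates 1 to 4. There were 2.48, 2.70, 2.70 and 3.26 in dimethyl succinate replicates 1 to 4. The means were 2.08 ± 0.136 and 2.79 ± 0.334 (SD, n = 4). Every dimethyl succinate library lay above every vehicle library, including replicate 1, which is inside the vehicle range for Il10 but has the lowest Il10ra of all 8 libraries.

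Il10rb, the receptor chain shared with other cytokines of the family, had a higher mean under dimethyl succinate. It stood at 23.6, 21.8, 23.3 and 18.2 CPM in vehicle replicates 1 to 4. Under dimethyl succinate it stood at 25.5, 25.3, 22.9 and 24.1 CPM. The groups overlapped through replicate 3 of dimethyl succinate, and the low vehicle value is that of replicate 4. Its log2 fold change of 0.17 ± 0.097 (SE) had an unadjusted p of 0.105, and it was 0.095 without vehicle replicate 4, with an unadjusted p of 0.268. Il10rb lies on the plus strand of chromosome 16 from 91406164 to 91425834 (GRCm38). It shares 14.9% of its exon bases with the same-strand gene Gm21970, which had 0 counts in every library.

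Maf, Prdm1 and Ahr, the transcription factors of this group that induce Il10, did not differ beyond the spread of the libraries. Maf, a basic leucine zipper factor, stood at 89.1, 97.5, 94.0 and 84.7 CPM in vehicle replicates 1 to 4. Under dimethyl succinate it stood at 88.7, 88.4, 96.2 and 99.8 CPM. These ranges overlap almost fully. The fit put Maf at 0.031 ± 0.068 (log2 fold change, SE), with 95% limits of -0.12 and 0.18, and at -0.0033 without vehicle replicate 4. Maf spans 115682942 to 115707794 on the minus strand of chromosome 8 (GRCm38), and 5.34% of its exon bases lie opposite the antisense gene Gm15655, which had 0 counts.

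Prdm1 encodes BLIMP-1, a zinc finger repressor of effector T cells and plasma cells that supports Il10 together with MAF. It stood at 45.8, 44.6, 39.8 and 35.5 CPM in vehicle replicates 1 to 4. The dimethyl succinate libraries stood at 39.8, 40.8, 38.3 and 42.0 CPM, all inside the vehicle range. Prdm1 came to -0.042 ± 0.089 (log2 fold change, SE) with an unadjusted p of 0.640, and to -0.11 without vehicle replicate 4, where the unadjusted p was 0.141. Prdm1 spans 44437177 to 44528501 on the minus strand of chromosome 10 (GRCm38), with no exon base shared with another gene.

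Ahr encodes a receptor for small aromatic ligands, and it had the lowest level per length of the 8. Its vehicle replicates stood at 23.9, 19.8, 20.7 and 14.1 CPM. Its dimethyl succinate replicates stood at 18.1, 18.6, 20.4 and 19.3 CPM. Vehicle held both the highest and the lowest library, and the SD was 4.06 CPM under vehicle and 0.992 under dimethyl succinate. For Ahr the log2 fold change of -0.039 ± 0.14 (SE) had an unadjusted p of 0.775. Without vehicle replicate 4 it was -0.17, with an unadjusted p of 0.0843 (adjusted, 0.641), and without vehicle replicate 1, the highest library, it was 0.070, so the direction rested on single vehicle libraries. Ahr spans 35497974 to 35535038 on the minus strand of chromosome 12 (GRCm38), and 2.06% of its exon bases lie opposite the long noncoding gene Gm48236, which had 0 to 3 counts.

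Il27ra, the chain that makes the IL-27 receptor specific, was the second most abundant transcript of the 8 per length. It stood at 107, 101, 109.9 and 92.8 CPM in vehicle replicates 1 to 4. Under dimethyl succinate it stood at 110.0, 112, 113 and 101 CPM. The groups overlapped, and the lowest library was again vehicle replicate 4. The log2 fold change was 0.089 ± 0.069 (SE), with an unadjusted p of 0.218, and it was 0.045 without vehicle replicate 4. Il27ra spans 84030294 to 84042589 on the minus strand of chromosome 8 (GRCm38), and 0.0572% of its exon bases lie opposite Palm3.

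Ebi3, the chain that IL-27 and IL-35 share, had the largest estimate and the widest interval of the 8 genes. It stood at 9.74, 10.5, 9.12 and 4.24 CPM in vehicle replicates 1 to 4. Under dimethyl succinate it stood at 11.3, 7.94, 11.4 and 9.65 CPM. Apart from vehicle replicate 4, the vehicle libraries lay inside the range of the dimethyl succinate libraries. Ebi3 was estimated at 0.26 ± 0.23 (log2 fold change, SE), with 95% limits of -0.25 and 0.76, and without vehicle replicate 4 at 0.037, with limits of -0.24 and 0.31. Its counts were the lowest of the 8, from 61 to 186 per library. Ebi3 spans 55952640 to 55957022 on the plus strand of chromosome 17 (GRCm38). It shares 23.4% of its exon bases with the antisense gene Gm16712, which had 28 to 43 counts, and whether counting used strand was not given in the sources used here, so the Ebi3 counts are uncertain.

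**Figure D3:**
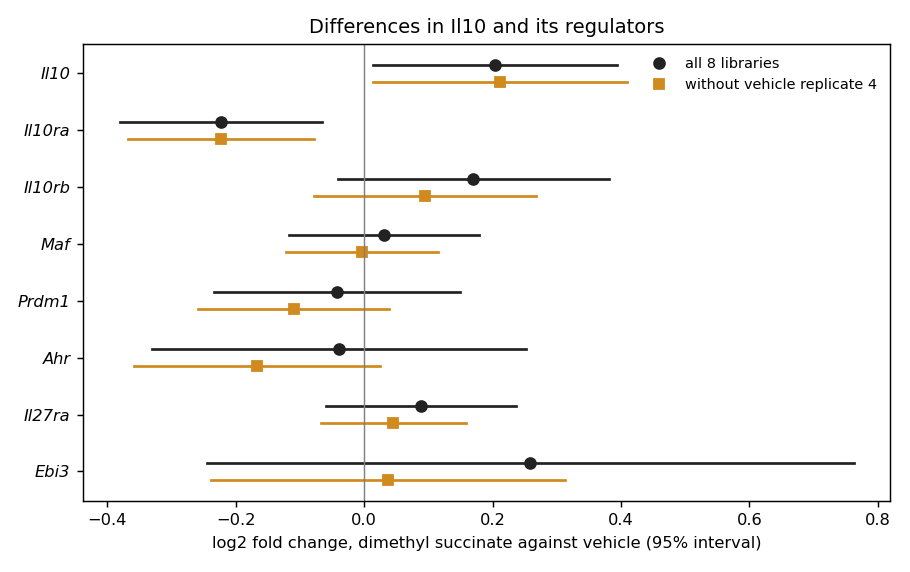
Log2 fold change of dimethyl succinate against vehicle for each of the 8 genes, with 95% intervals, from all 8 libraries (black circles) and without vehicle replicate 4 (orange squares). Il10 and Il10ra keep their values at 0.20 and -0.22 with all libraries and 0.21 and -0.22 without that one, while Ebi3 moves from 0.26 to 0.037.

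The intervals bound how large a difference these libraries leave room for. For 7 of the 8 genes the 95% interval with all libraries lay within a 1.5-fold change in either direction, Ebi3 being the exception, and without vehicle replicate 4 it did for all 8. The median log2 fold change of the 8 genes was 0.060, against -0.0011 over all genes tested, and 0.017 without vehicle replicate 4, against -0.00021. Of the 8 genes 5 had a log2 fold change above 0, where 49.6% of all genes tested did, and 4 did without vehicle replicate 4, where 50% did.

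By level per length the genes are ordered here by their mean over the 8 libraries. Il10 stood at 85.1 ± 10.5 FPKM and Il27ra at 30.1 ± 1.95 (SD, n = 8), and no library of Il27ra reached the lowest Il10 library. Il10ra at 13.3 ± 1.30 and Maf at 11.1 ± 0.619 FPKM followed, with overlapping ranges. Ebi3 at 7.95 ± 1.98, Prdm1 at 7.27 ± 0.583 and Il10rb at 6.03 ± 0.590 FPKM came next. Neighbours among these 3 overlapped, but no Ebi3 library reached the lowest Maf library. Ahr came last at 3.12 ± 0.440 FPKM, with its highest library below the lowest Il10rb library. The specific receptor chain was thus above the shared chain, at 14.3 ± 0.879 against 5.68 ± 0.632 FPKM under vehicle and at 12.2 ± 0.520 against 6.37 ± 0.310 under dimethyl succinate (SD, n = 4).

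Genes around IL-10 were read from the same fit, in 8 lists, for which only counts and medians are given. No gene of these lists passed an adjusted p of 0.05 with all libraries. Downstream of the receptor, 0 of 11 genes had an unadjusted p under 0.05, and the list's median log2 fold change was -0.042. Without vehicle replicate 4 there were 2 higher and 2 lower of 11, where 8.54% of all genes tested reached that p, 4.43% higher and 4.12% lower, and the median was -0.039. Bcl3 (0.12) and Ddit4 (0.15) were the higher pair in log2 fold change, and Nfil3 (-0.20) and Zfp36 (-0.15) the lower pair. Ddit4, Nfil3 and Zfp36 were named after their values were seen. Stat3, the main carrier of the IL-10 signal, stood at 485 ± 11.1 and 504 ± 7.38 CPM, and it was picked outside the naming rule. Bcl3, a nuclear IκB protein that IL-10 induces, had the smallest p of the list, at 74.7 ± 15.2 and 89.6 ± 5.61 CPM (SD, n = 4). Its log2 fold change was 0.26 ± 0.13 (SE), or 0.12 without vehicle replicate 4. Socs3, the feedback inhibitor that STAT3 induces, stood at 117 ± 4.60 and 107 ± 6.78 CPM, and the kinase gene Tyk2 at 139 ± 8.15 and 153 ± 10.8.

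On the IL-27 and IL-35 side, 0 of 8 tested genes had an unadjusted p under 0.05, and their log2 fold changes had a median of 0.094. Without vehicle replicate 4 the median was 0.054 and 1 of the 8, Stat4, had an unadjusted p under 0.05, at a log2 fold change of 0.22. In that fit 8.54% of all genes tested had such a p, 4.43% higher and 4.12% lower. The partner chains of EBI3 were barely present: Il27 had 1 to 5 counts and Il12a 2 to 6 counts per library, so neither was tested, and both were picked outside the naming rule. Il6st, which encodes gp130, averaged 98.8 ± 13.5 CPM with vehicle and 110.4 ± 3.69 with dimethyl succinate (SD, n = 4). This was 0.16 ± 0.089 (SE) in log2 fold change, or 0.068 without vehicle replicate 4. Stat4, which signals for IL-12, stood at 26.7 ± 2.81 and 30.8 ± 3.40 CPM, and 26.7% of its exon bases are shared with the gene model Gm28177.

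The AHR list held partners and targets of the receptor, and 0 of its 11 genes had an unadjusted p under 0.05; the median was -0.041. Without vehicle replicate 4 the median was -0.033 and 1 gene had such a p: Tiparp, an AHR target named after its values were seen, at -0.22. Of all genes tested in that fit, 8.54% had such a p, 4.43% higher and 4.12% lower. Ahrr, a repressor that AHR itself induces, stood at 2.81 ± 0.311 and 3.34 ± 0.521 CPM (SD, n = 4). Cyp1a1, the textbook target and a gene outside the naming rule, stood at 2.40 ± 0.105 and 2.27 ± 0.992 CPM, which is -0.086 ± 0.28 (SE) in log2 fold change. Il22, a cytokine of the IL-10 family that AHR supports, had the smallest p, at 16.2 ± 4.02 and 19.7 ± 0.804 CPM, and its log2 fold change of 0.28 was 0.11 without vehicle replicate 4. Ncoa7 stood at 74.9 ± 5.85 and 69.3 ± 7.08 CPM.

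Further activators of Il10 held 23 genes, of which 2 had an unadjusted p under 0.05, both higher, where 5.76% of all genes tested had such a p, 2.93% higher. The list's median was 0.018, and it turned to -0.0030 without vehicle replicate 4. Notch1, a receptor that releases a transcriptional activator, stood at 463 ± 39.8 and 536 ± 41.5 CPM. Its log2 fold change, 0.21 ± 0.079 (SE), had an unadjusted p of 0.0193 that edgeR's quasi-likelihood test adjusted to 0.802. Without vehicle replicate 4 the log2 fold change of Notch1 was 0.16. Stat6, which carries the IL-4 signal, stood at 249 ± 32.6 and 291 ± 11.0 CPM, and its log2 fold change of 0.22 was 0.13 without vehicle replicate 4. Tgfb1, the cytokine that supports regulatory T cells, moved from 0.22 to 0.11 when that library was left out. In that fit 7 of the 23 genes were higher and 5 lower with an unadjusted p under 0.05, against 4.43% and 4.12% of all genes tested. None passed an adjusted p of 0.05. The 5 lower were Il21 (-0.23), Nfil3 (-0.20), Tgfbr1 (-0.16), Gata3 (-0.16) and Icos (-0.11). The 7 higher were Notch1, Stat6, Tgfb1, Stat4 (0.22), Egr2 (0.19), Creb1 (0.15) and Junb (0.13). Those other than Notch1, Stat6 and Tgfb1 were named after their values were seen. Of the 4 repressors, 0 reached an unadjusted p below 0.05 with or without vehicle replicate 4, and their median was 0.10, or 0.074 without it. Bcl6, a repressor that opposes BLIMP-1, and Bach2, which represses Prdm1, had log2 fold changes of 0.32 ± 0.15 and 0.16 ± 0.077 (SE), or 0.24 and 0.091 without vehicle replicate 4, and Bhlhe40, a repressor of Il10, one of 0.045 ± 0.060.

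Of 14 relatives and neighbours of Il10, 6 were tested, and Il22ra1 and Faim2 had 0 counts in all 8 libraries. The median of the 6 was 0.038, and it turned to -0.021 without vehicle replicate 4. Faim2 lies on another chromosome than Il10 and was listed in error. Of all genes tested, 5.76% had an unadjusted p below 0.05, 2.93% higher and 2.83% lower. Il20rb, a receptor chain for IL-19, IL-20 and IL-24, was the only one of the 6 with such a p. Its vehicle libraries averaged 11.0 ± 1.81 CPM, against 8.50 ± 0.945 under dimethyl succinate (SD, n = 4). In log2 fold change this was -0.36 ± 0.14 (SE), and it was -0.25 without vehicle replicate 4, where the unadjusted p was 0.0677. Dyrk3, a kinase gene near Il10, stood at 8.67 ± 0.957 and 7.75 ± 0.936 CPM.

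Of 9 tested genes in the list of inhibitory receptors and their relatives on IL-10-producing T cells, 8 were above 0 in log2 fold change, where 49.6% of all genes tested were. An unadjusted p under 0.05 was found for 1 of the 9, and for 5.76% of all genes tested; without vehicle replicate 4 these were 2 of 9 and 8.54%. The list's median was 0.12, or 0.15 without vehicle replicate 4. Pdcd1, which encodes PD-1, stood at 54.0 ± 4.62 and 69.5 ± 6.61 CPM. Its log2 fold change was 0.36 ± 0.086 (SE), and edgeR's quasi-likelihood test adjusted its p to 0.646. Without vehicle replicate 4 it was 0.41 and the adjusted p was 0.00831, which makes Pdcd1 the 1 gene of this list called in that fit, where 0.197% of all genes tested were called. Havcr2, which encodes TIM-3, stood at 16.1 ± 0.869 and 18.4 ± 1.87 CPM, and the activating receptor gene Cd226 at 16.7 ± 1.33 and 19.4 ± 1.98. Of 13 tested genes in the list of other cytokines, 2 had an unadjusted p under 0.05, both higher, where 2.93% of all genes tested were higher with such a p and 2.83% lower. The list's median was 0.22, or 0.11 without vehicle replicate 4. The pair were Il2, with a log2 fold change of 0.31 ± 0.092 (SE), and Il13, a T helper 2 cytokine, with 0.31 ± 0.14, or 0.24 and 0.17 without vehicle replicate 4. In that fit 3 of the 13 were higher and 2 lower with an unadjusted p under 0.05, where 4.43% of all genes tested were higher and 4.12% lower. The 3 higher were Il2, Tgfb1 (0.11) and Ifng (0.45, against 0.28 with all libraries), and Il13 was not among them. The lower pair were Il21 (-0.23) and Tnf (-0.16). Ifng, Il21 and Tnf were named after their values were seen.

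**Figure D4:**
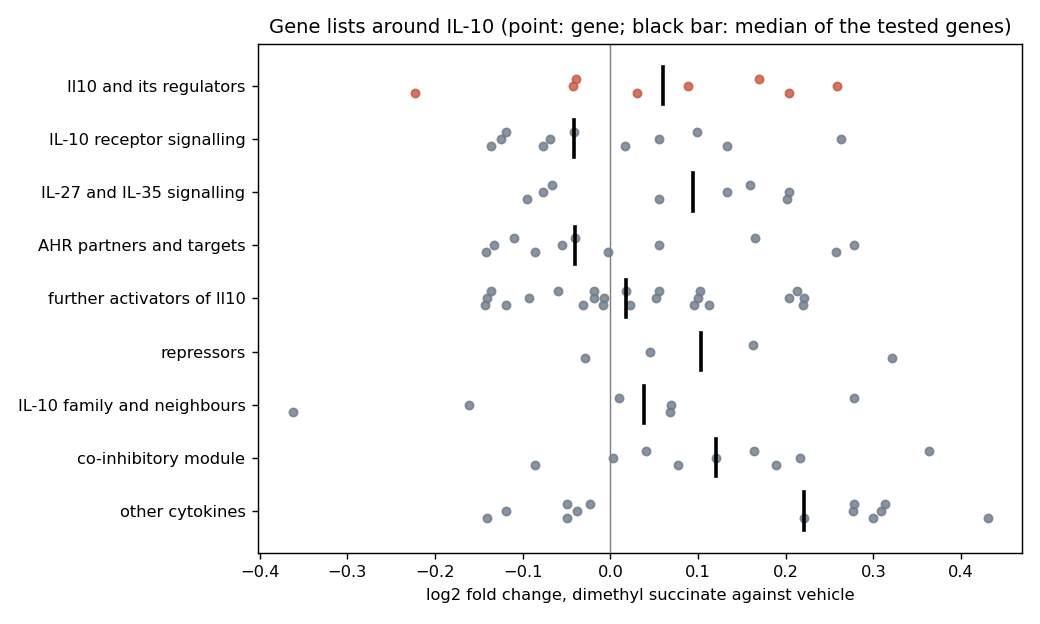
Log2 fold change of dimethyl succinate against vehicle for every tested gene of the lists around IL-10, one point per gene, with the black bar at the list's median. Red points are the 8 genes of this report, and a gene on several lists appears in each. The medians run from -0.042 for receptor signalling to 0.22 for other cytokines, and single genes lie on both sides of 0 in every list.

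Markers of other cells that make or receive IL-10 were measured in the same libraries, and the part of those cells in the results was not tested. The 8 markers of monocytes and macrophages summed to 4.17 to 7.55 CPM under vehicle and 6.39 to 10.7 under dimethyl succinate, with C1qa at 0 or 1 count per library. The 7 dendritic cell markers summed to 9.10 to 12.9 and 11.5 to 12.7 CPM, with Siglech and Cd209a at 0 counts throughout. Ighm, the immunoglobulin heavy chain gene of B cells, stood at 76.2 ± 17.9 and 87.4 ± 3.08 CPM (SD, n = 4). Its log2 fold change was 0.20, or 0.046 without vehicle replicate 4. The lowest monocyte and macrophage sum was that of vehicle replicate 4. Natural killer cell markers summed to 3.83 to 5.16 and 3.22 to 7.10 CPM, and mast cell and basophil markers to 15.3 to 20.5 and 17.3 to 21.9. Cd8a and Cd8b1 together stood at 5.50 to 5.98 and 5.85 to 7.54 CPM, with vehicle replicate 4 lowest. Foxp3, the lineage factor of regulatory T cells, which are also a source of IL-10 and EBI3, stood at 64.4 ± 18.4 and 79.3 ± 4.47 CPM (SD, n = 4). Foxp3 differed by 0.30 ± 0.19 (log2 fold change, SE), or by 0.11 without vehicle replicate 4, where it stood at 37.1 CPM, and 18.6% of its exon bases are shared with the same-strand gene Flicr. The 8 CD4+ T cell markers summed to 2066 to 2669 CPM under vehicle, with replicate 4 lowest, and 2612 to 2713 under dimethyl succinate. An unadjusted p under 0.05 was found for 1 of the 8, Cd5, and for 5.76% of all genes tested. Cd5 had a log2 fold change of 0.21, or 0.13 without vehicle replicate 4. Of the 8, 6 lay above 0, where 49.6% of all genes tested did, while Cd3d (-0.12) and Cd28 (-0.097) lay below. Without vehicle replicate 4 only 4 of the 8 lay above 0, where 50% of all genes did, with Cd3d at -0.047 and Cd28 at -0.19. The median was 0.089, or -0.014 without that library. In that fit 1 of the 8 was higher (Cd5) and 1 lower (Cd28) with an unadjusted p under 0.05, where 4.43% and 4.12% of all genes were. Cd5, Cd3d and Cd28 were named after their values were seen. Of the 8 regulatory T cell markers 7 lay above 0, where 49.6% of all genes tested did, and 0 reached an unadjusted p below 0.05. They summed to 2259 to 3137 CPM under vehicle, with replicate 4 lowest, and 3010 to 3191 under dimethyl succinate.

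Across libraries, the genes whose log2 CPM tracked Il10 most closely were named by a fixed rule from 8915 genes of at least 10 CPM. The values describe 8 points that share depth and handling with each other, and they include both groups. They are the highest of 8915, and how high r runs for unrelated genes over so few libraries was not tested. Over all 8 libraries the 5 closest were Plagl1 (Pearson r = 0.98), Havcr2 (0.95), Lrba (0.94), Arhgef12 (0.92) and Rai14 (0.91). Over the 7 libraries without vehicle replicate 4 they were Plagl1 (0.99), S100a6 (0.97), Havcr2 (0.97), Lrba (0.97) and Ccl4 (0.97). Plagl1, a zinc finger transcription factor, Havcr2, which encodes TIM-3, and Lrba, a gene of vesicle trafficking, were named both times. Among the other 7 genes described here, Maf tracked Il10 best, at r = 0.58 over 8 libraries and 0.60 over 7, and Il10ra stood at -0.36 and -0.32.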

How the data were processed

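For each library the authors deposited raw counts of every gene, per the file headers, and FPKM values beside them. Their group means (a normalised signal, with no unit given), log2 fold changes and p-values were deposited in the same table. HISAT2 2.0.5 is named in the submitters' processing notes; for the counting tool, annotation, build and strand setting no source is held here. Of 54409 genes matched to GENCODE M21, 99.17% have an equal start or end, so coordinates are read as GRCm38.

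Counts were tested with edgeR 4.0.16 in R 4.3.3 (filterByExpr, TMM, robust quasi-likelihood F test, two-sided, 4 against 4, no covariate), with Benjamini-Hochberg adjustment over 13981 genes at 0.05. CPM values use TMM-scaled totals, and log2 CPM a prior count of 2. Standard errors come from the F statistic. The test was tested on simulated data. The smallest mean chi-square per gene between replicates was 2.12, so all libraries were kept as separate replicates. That value does not show whether they came from separate animals or cultures. Pairs with vehicle replicate 4 had 35.4 to 40.5, and the other vehicle pairs 2.49 to 3.64.

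The 8 genes and all lists were chosen with earlier results of these data known. Named from each list were up to 3 genes of smallest p and any with no counts; for Il10, the 5 most alike by Pearson r with and without vehicle replicate 4. Other genes are marked as outside this rule. Alternatives were DESeq2 1.42.0, limma 3.58.1 (voom, and trend on log2(FPKM + 1) and log2(FPKM + 0.1)), other scaling and filters, omission of each library, and a block for the replicate number; voom with library quality weights was added after seeing the data.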

Additional observations from a re-analysis of the deposited data

Results flagged for a closer look

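The mitochondrially encoded share of counts in vehicle replicate 4, 0.252%, lay far below the other vehicle libraries. It was the only value flagged among 22 groups of 4 libraries examined for a sample far from the others, which took in the CPM of the 8 genes, total counts, the mitochondrial share and the Il10 to Il10ra ratio. Chance flags about 1 in 20 such groups. The same library was the lowest of the 8 for Il10rb, Maf, Prdm1, Ahr, Il27ra and Ebi3, but not for Il10 or Il10ra, and none of those 6 low values was flagged.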

How the results depend on the processing

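Each of the 8 log2 fold changes was recomputed in 20 alternatives, 160 values in all. Of these, 155 kept their direction and stayed above an adjusted p of 0.05, and 5 reversed; the lowest adjusted p was 0.223. Il10 was higher and Il10ra lower in all 20. The reversals were Maf with library quality weights (-0.00057) and on omission of vehicle replicate 4 (-0.0033) or dimethyl succinate replicate 4 (-0.0013), and Prdm1 (0.011) and Ahr (0.070) without vehicle replicate 1. With one library left out, log2 fold changes ran from 0.12 to 0.28 for Il10, -0.26 to -0.18 for Il10ra, 0.095 to 0.21 for Il10rb, -0.0033 to 0.063 for Maf, -0.11 to 0.011 for Prdm1, -0.17 to 0.070 for Ahr, 0.045 to 0.13 for Il27ra and 0.037 to 0.39 for Ebi3. Over the same fits, 14114 to 14244 genes were tested. An unadjusted p below 0.05 was found for 1 to 2 of the 8 genes and for 585 to 1216 of all genes tested. Groups did not overlap for 1 to 2 of the 8 and for 999 to 1370 of all genes tested. In all, 0 to 28 genes were called, the 28 without vehicle replicate 4. On log2(FPKM + 1) and on log2(FPKM + 0.1), 1 of the 8 had an unadjusted p below 0.05, where 841 and 849 of 13981 genes did. Genes called numbered 4 in DESeq2, 6 with no low-count filter and 40 with library quality weights, none of them among the 8; the cause was not tested. With the replicate number as a block 1 gene was called and Il10 and Il10ra stood at 0.20 and -0.22. Same-numbered libraries correlated from -0.014 to 0.13 in their deviations and 3 of 8 libraries were most alike their own number, so the number was not read as a pairing. Adjusted over all genes, the exact permutation p of the 8 was at least 0.593. Ebi3 had the lowest counts of the 8, at 61 to 186 per library. The SE of its log2 fold change was 0.23 with all libraries and 0.13 without vehicle replicate 4.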
